A study of Saccharomyces cerevisiae with 10 samples.

Results

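A set of 93 budding yeast mRNAs stood above their starting level in every library taken after transcription had been shut off, while most mRNAs stood below it. The set was selected on these measured values: yeast gene identifiers with at least 10 FPKM (fragments scaled by transcript length and by the fragments mapped in the library) before the shift, scaled FPKM above that value in all 9 later libraries, and 22 listed heat shock genes left out. Of 5193 genes with at least 10 FPKM at 0 min, among 6685 yeast identifiers, 113 (2.18%) stood above 0 min in all 9 later libraries and 4028 (77.6%) stood below it in all 9. Of the 113, 20 were among the 22 heat shock genes, which leaves the 93. Because every library took part in the choice, all levels and ratios over time given here are a description, with no test.

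The cells carried rpb1-1, a temperature-sensitive allele of the largest subunit of RNA polymerase II, together with a deletion of CAF1 (POP2), a catalytic subunit of the Ccr4-Not deadenylase. Mid-log cultures kept at 24 °C were moved to 37 °C. The 0 min aliquot was taken before the move, and 9 later ones followed at 3, 6, 8, 10 and 15 min and at 20, 30, 45 and 60 min, with 1 library per time point. All 10 libraries come from the strain labelled yJC1257, although the growth description names yJC244, and the duplicate that the design text mentions was not analysed here. With 1 library per time point no value has a replicate error. The temperature move, the loss of polymerase activity, the absence of Caf1 and the order of the libraries cannot be told apart, since every library carries the same genotype and no unshifted series was used here.

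The values are deposited FPKM divided by the summed FPKM of the ERCC spike-in RNAs of the same library relative to 0 min, here called scaled FPKM, and a ratio is a scaled FPKM divided by its 0 min value. The spike-ins were added to extracted RNA, so more RNA per cell and fewer cells behind the same input cannot be told apart. This factor was 1.25 in the 8 min library, 1.05 in the 10 min library and 1.23 in the 15 min library, and 1.42 in the last. The 10 min library stands apart in this series of factors, and 82.0% of all 5193 genes, with 89 of the 93 mRNAs, were higher in it than at 8 min. Between 30 and 45 min the same step upward was seen for 74.3% of all genes and for 78 of the 93. Without the 10 min library the rule gave 93 mRNAs again, with a median highest ratio of 2.08 in place of 2.16. The depth estimated from whole-fragment steps of low FPKM values ranged from 2236724 fragments at 15 min to 4876216 at 45 min. The deleted POP2 was at 0.887 scaled FPKM at 0 min and at 0 at 60 min. The strain is described as carrying HIS3 in place of CAF1, but HIS3 was listed at 0 in all 10 libraries, so the marker was not seen. A listed 0 need not mean absence, since the a-cell gene MFA1 was also at 0 where other a-cell transcripts were present. The a-cell transcripts STE2 (90.5 scaled FPKM), BAR1 (68.3) and STE6 (38.3) were present at 0 min, and the alpha-cell transcripts MF(ALPHA)1, MF(ALPHA)2 and STE3 were at 2.29, 2.58 and 1.82. The short a-factor genes MFA1 and MFA2, also a-cell markers, were listed at 0, MFA1 in all 10 libraries and MFA2 in all but that at 15 min (493).

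When yeast is moved to a higher temperature, the heat shock factor Hsf1 and the paired activators Msn2 and Msn4 turn on a set of protective genes. Hsf1 binds heat shock elements, runs of alternating GAA and TTC units, and drives chaperones and their partners. Msn2 and Msn4 bind the stress response element AGGGG and drive genes for trehalose and glycogen metabolism, antioxidants and cell surface proteins. The shift that inactivates the rpb1-1 polymerase is itself a move to such a temperature.

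The word "non-chaperone" does not describe the set. It still held 7 of the 64 measured genes on a list of other chaperones, co-chaperones and folding enzymes (10.9%, against 2.18% of all genes). In all later libraries 39 of the 64 were below 0 min, against 77.6% of all genes. The 22 genes left out were not all above 0 min either. SIS1, which encodes an Hsp40 co-chaperone, had a lowest ratio of 0.752, and CTT1, the cytosolic catalase, one of 0.764. The set is therefore called here by its rule, as the mRNAs always above 0 min.

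The 93 mRNAs had a median highest ratio of 2.16 (quartiles 1.72 and 2.79, range 1.16 to 17.9). Their median highest ratio lay between that of the 22 left-out heat shock genes (3.27) and that of all 5193 genes (0.847, a highest later value under the starting level). At least 2-fold was reached by 54 of the 93, at least 3-fold by 21 and at least 5-fold by 5, while 11 stayed under 1.5-fold. At 60 min the median ratio was 1.57, beside 2.11 for the left-out genes and 0.352 for all genes. The 93 made up 3.60% of the summed yeast FPKM at 0 min and 9.90% at 60 min, when the summed scaled FPKM of all yeast genes stood at 52.6% of 0 min. Without the enolase genes ENO1 and ENO2 these shares were 2.12% and 6.68%.

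**Figure D1:**
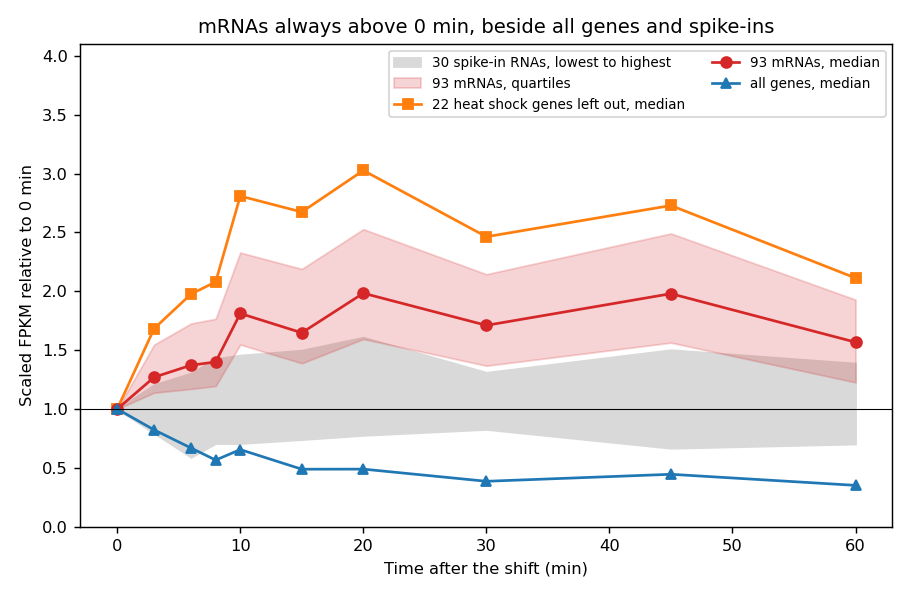
Scaled FPKM relative to 0 min (vertical axis) against time after the shift in min (horizontal axis) for the 93 mRNAs (median and quartile band), the 22 heat shock genes left out (median), all 5193 genes (median) and the 30 spike-in RNAs (grey band from lowest to highest). The median of the 93 went from 1.27 at 3 min to 1.98 at 20 min and 1.57 at 60 min, while that of all genes was at 0.352 at 60 min.

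The spike-in RNAs give the only measured scale of error. Of 30 spike-ins with at least 10 FPKM at 0 min, 4 (13.3%) also stood above 0 min in all 9 later libraries, a larger share than the 2.18% of yeast genes, so the rule alone is also met by RNAs that were added in equal amount. The highest ratio of any spike-in was 1.61, and the median over spike-ins was 1.12. The highest ratio of 78 of the 93 mRNAs was over that of every spike-in. The other 15 (RNY1, PAI3, RRD2, TPO2, MBF1, TDH1, FAA1, PRM5, UBC4, AIP1, ERV29, ENO2, ENO1, DAK1 and DRE2) reached no higher ratio than the highest spike-in, ERCC-00059. That spike-in had only 12.0 FPKM at 0 min, and abundant spike-ins varied less. ERCC-00024, with 4279 FPKM, reached 1.03, so 1.61 is no measure of error for abundant mRNAs among the 15.

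**Figure D2:**
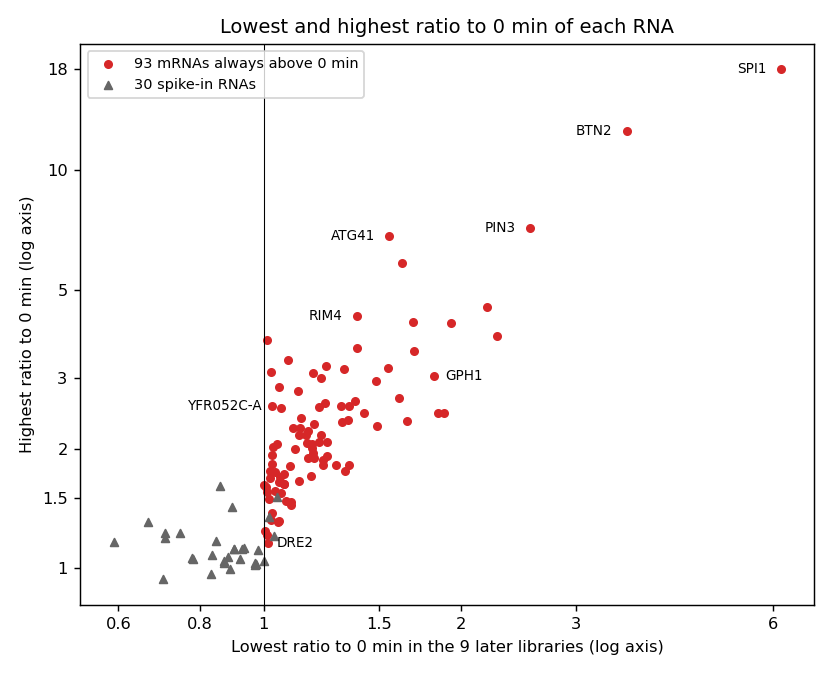
Highest ratio to 0 min (vertical log axis) against the lowest ratio in the 9 later libraries (horizontal log axis) for each of the 93 mRNAs (circles) and each of 30 spike-in RNAs (triangles). SPI1, BTN2 and PIN3 lie far to the upper right, and 15 of the 93 lie no higher than the highest spike-in, at 1.61.

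For 69 of the 93 mRNAs, those with at least 500 coding bases in the annotation, the number of fragments could be estimated, with a median of 373 at 0 min (range 35 to 32398). The exact 95% interval of the highest ratio, which covers counting error only and takes no account of its choice as the highest of 9, lay above 1 for all 69. That of the 60 min ratio lay above 1 for 58, and that of the lowest later ratio for 38. Since the rule kept only ratios above 1, these counts describe precision and support nothing about the set. Near the threshold on level, PXA1, a peroxisomal fatty acid transporter, entered at 10.8 FPKM at 0 min, MLO1 at 12.8 and SNG1 at 15.2, and YJL015C (9.74), GAS2 (9.72) and CAT8 (8.63) stayed just outside. Near the threshold on ratio, CPS1 (vacuolar carboxypeptidase S) had a lowest ratio of 1.002, ENO1 one of 1.006 and RNY1 (a vacuolar ribonuclease) one of 1.007. YDJ1 (an Hsp40 co-chaperone) at 0.9995, TDH3 (glyceraldehyde-3-phosphate dehydrogenase) at 0.9989 and MHP1 at 0.9987 just missed it. In all, 42 genes stood above 0 min in 8 of the 9 later libraries, and 43 genes always above 0 min had under 10 FPKM at 0 min.

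Of 11 measured direct targets of Hsf1 outside the left-out genes, 7 were in the set (63.6%, against 2.18% of all genes) and 0 were always below 0 min (against 77.6% of all genes). The gene lists used here were written with earlier results of these data known, so such shares are a description and no support. All of these 7 but MBF1 were also counted on the chaperone list above. BTN2, which sorts misfolded proteins into deposits, had 167, 1073, 1414, 1556, 2091, 1703, 1637, 749, 1073 and 599 scaled FPKM in the 10 libraries from 0 to 60 min, the order used throughout. It stood 12.5-fold above 0 min at 10 min and 3.59-fold (counting interval 3.31 to 3.89) at 60 min, which was its lowest later value. AHA1, an activator of the Hsp90 ATPase, had 175, 289.7, 313, 319.9, 391, 344, 388, 347, 410.3 and 312 scaled FPKM. HCH1, its shorter relative with the same role, had 239.8, 357, 373, 361, 459, 395, 546, 475, 537 and 495. Both were near a ratio of 2.3 at their highest.

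Members with a role in mitochondrial folding were SSC1 and HSP10, beside the left-out HSP60 and HSP78, which reached 2.50 and 5.26. SSC1, the Hsp70 of the mitochondrial matrix, had 522, 534, 561, 555, 881, 550.0, 828, 811, 799.7 and 706 scaled FPKM, with a lowest ratio of 1.02 at 3 min. HSP10, the co-chaperonin of Hsp60, had 760.1, 980.2, 1126, 1064, 1249.7, 1245, 1383, 1295, 1351 and 1347, and its later values lay within a narrow range. SGT2, a co-chaperone that hands tail-anchored proteins to their targeting pathway, had a highest ratio of 1.81 from 430.2 scaled FPKM at 0 min. MBF1, a transcriptional coactivator, had a highest ratio of 1.49 at 10 min and was back at 1.03 by 60 min. ERO1, the thiol oxidase that forms disulphide bonds in the endoplasmic reticulum and the seventh chaperone-list gene, had 152, 389, 448, 463, 630.0, 572, 596, 368, 503 and 294. It was 4.14-fold above 0 min at 10 min and 1.93-fold (1.79 to 2.08) at 60 min. KAR2, the Hsp70 of the same compartment, was above 0 min in 8 of 9 later libraries and so did not enter.

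A heat shock element of 3 alternating units, GAA, TTC, GAA or the reverse with 2 bases between units, was found within 500 bases before the coding start of 8 of the 84 members in the RefSeq annotation (9.52%, exact 95% interval 4.20 to 17.9), against 1.48% of all 6021 promoters and 54.5% of those of the left-out genes. This longer window was chosen after seeing the data. In the window from 250 bases before to 50 after the coding start the element was found in 3 of 84 (3.57%, interval 0.743 to 10.1), against 0.781% of all promoters. The 8 stretches are printed because they hold the longest element searched; capitals mark its units, and each reads 5′ to 3′ on its gene's strand in the R64 assembly. They lie at chrVII:772095-772142 (plus strand) for BTN2, which has a run of 4 units and so 2 overlapping matches, chrIV:892559-892601 (plus) for AHA1, chrXV:370977-371019 (minus) for HSP10, chrXV:265228-265270 (plus) for OPI10, chrXIII:70255-70297 (plus) for TSL1, chrIII:38978-39020 (minus) for APA1, chrIV:811908-811950 (minus) for ARG82 and chrXIII:167648-167690 (minus) for CYB2.
BTN2: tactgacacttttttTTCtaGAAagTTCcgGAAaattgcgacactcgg
AHA1: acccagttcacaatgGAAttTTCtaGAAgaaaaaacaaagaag
HSP10: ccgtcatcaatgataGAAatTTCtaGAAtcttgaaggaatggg
OPI10: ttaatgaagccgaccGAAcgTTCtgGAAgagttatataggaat
TSL1: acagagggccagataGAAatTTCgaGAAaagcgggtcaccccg
APA1: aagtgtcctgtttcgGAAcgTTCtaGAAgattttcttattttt
ARG82: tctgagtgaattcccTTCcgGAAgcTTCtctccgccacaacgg
CYB2: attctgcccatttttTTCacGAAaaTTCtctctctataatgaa

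The match begins 344 bases before the coding start in BTN2, 186 in OPI10 and 160 in HSP10. OPI10, the yeast counterpart of human Hikeshi, which carries Hsp70 into the nucleus in human cells, had 74.2, 209.8, 221, 209, 262, 197, 206, 168, 185 and 126 scaled FPKM and was highest, 3.53-fold, at 10 min. A match is a description of these letters and no evidence of binding. Other carriers had smaller ratios: APA1, a diadenosine tetraphosphate phosphorylase, reached 1.71, ARG82, an inositol polyphosphate kinase, 2.07 and CYB2, the L-lactate dehydrogenase of mitochondria, 2.02.

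The pair of units GAANNTTC or TTCNNGAA, a weaker criterion, was found in 24 of 84 promoters (28.6%; interval 19.2 to 39.5) in the same shorter window. All promoters held it in 22.6% of cases and the left-out genes in 63.6%. The stress response element AGGGG, on either strand, was found in 33 of 84 (39.3%; interval 28.8 to 50.5), against 21.6% of all 6021 promoters, 22.1% of the 4890 annotated genes with at least 10 FPKM, and 45.5% of the left-out genes. At least 2 AGGGG matches were found in 9 members (10.7% against 2.92% of all promoters) in this window, which reaches past the coding start. In GLC3, GRE3 and CPS1 a match lies after the coding start. In 500 bases upstream the share with AGGGG was 60.7%, against 34.0% of all promoters. The promoters were not used by the rule, and these shares are given beside their background with no test.

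**Figure D3:**
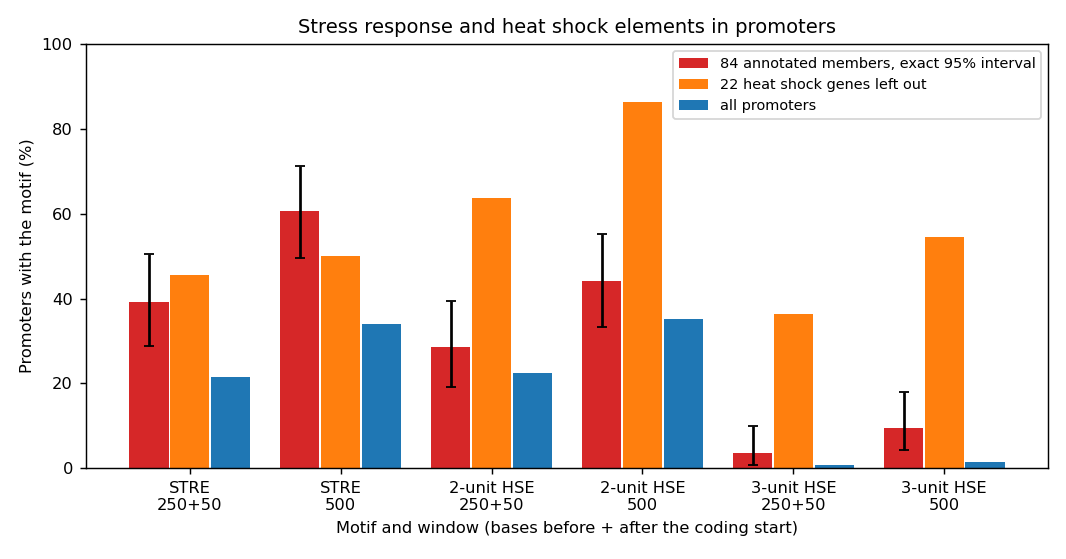
Share of promoters in percent (vertical axis) holding the stress response element (STRE), a heat shock element (HSE) of 2 units or one of 3 units, in the window of 250 bases before and 50 after the coding start or in 500 bases before it (horizontal axis). Bars stand for the 84 annotated members (error bars, exact 95% interval), the 22 left-out genes and all 6021 promoters; AGGGG was found in 39.3% of the members and 21.6% of all promoters in the shorter window.

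Other motifs were searched on both strands. The Yap1 element TTACTAA was found in 11.9% of the members and 7.49% of all promoters, and the Gcn4 element TGACTC in 7.14% and 7.96%. The proteasome element GGTGGCAAA, the target of Rpn4, was found in 2.38% and 1.196%, and CACGTG in 1.19% and 2.91%. Grouped by motif in the shorter window, the 34 members with neither AGGGG nor the pair of heat shock units had a median highest ratio of 2.46, the 26 with AGGGG alone 2.01, the 17 with heat shock units alone 2.07 and the 7 with both 1.75. SPI1 and BTN2 held heat shock units and no AGGGG, and PIN3, the third in the order of ratios, held neither.

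Genes of the general stress response made up the largest listed group. Of 71 measured genes on a list of general stress genes, 19 (26.8%, against 2.18% of all genes above 0 min throughout) were in the set. Always below 0 min were 13 (against 77.6% of all genes), and 39 did neither. Whether each listed gene needs Msn2 or Msn4 was not tested. The list had a median highest ratio of 1.34 and a median 60 min ratio of 0.873, so that membership was not shared by most of it. SPI1, a cell wall protein anchored by a lipid and made in weak acid stress and starvation, had 39.7, 245, 456, 493, 695, 622, 712, 524, 674 and 529 scaled FPKM. It stood 17.9-fold above 0 min at 20 min, the highest ratio of the set, and 13.3-fold at 60 min. SPI1 has only 447 coding bases, so no counting interval was estimated for it. TMA10, a small protein that associates with ribosomes, had 367, 804, 1232, 1329.8, 1662, 1198, 1344, 879, 1014 and 805, with its highest ratio of 4.53 at 10 min. RIM4, an RNA-binding protein that represses translation in meiosis, had 17.1, 23.7, 24.1, 29.6, 39.1, 42.8, 66.5, 63.8, 73.4 and 54.8. SPI1 was high from the first minutes on, whereas RIM4 was highest at 45 min and its 3 min ratio was only 1.39.

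Some enzymes of storage carbohydrate metabolism were members and others were not. Of 52 measured genes for glucose uptake, glycolysis, fermentation and storage, 11 were members (21.2%, against 2.18% of all genes above 0 min throughout), 9 were always below 0 min (against 77.6% of all genes) and 32 did neither. Of the 11 members, TSL1, GSY2, GLC3, GPH1, GDB1 and PGM2 were also counted on the general stress list, so the shares of these lists are not separate results. GPH1, the phosphorylase that breaks glycogen down, had 129, 234, 279, 287, 383, 362, 383, 367, 391 and 353 scaled FPKM and lay close to 3-fold from 10 to 45 min. TSL1, a regulatory subunit of the trehalose synthase complex, had 292, 383, 429, 441, 625, 501, 686, 692, 746 and 625. Glycogen was represented on both its sides: synthesis by GSY2, glycogen synthase (highest ratio 2.26), GLC3, the branching enzyme (1.63), and GIP2, which brings a phosphatase to glycogen enzymes (2.53), and breakdown by GPH1 and GDB1, the debranching enzyme (2.05). PGM2, the main phosphoglucomutase, reached 2.45 and ATH1, the acid trehalase, 2.16. TPS1, which makes trehalose phosphate, NTH1, the neutral trehalase, and HXK1, a hexokinase, were above 0 min in 8 of 9 later libraries only. At 60 min GSY1, the other glycogen synthase, was at 0.515 of its 0 min level, UGP1, which makes UDP-glucose, at 0.659 and TPS2, trehalose phosphatase, at 0.670. PGM1, the minor phosphoglucomutase (0.144), and GLG2, a glycogen primer (0.347), were always below 0 min.

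Among all annotated members, 9 hold more than 1 AGGGG in the shorter window. Of these, 4 are printed to show how the copies are spaced, with AGGGG or its complement CCCCT in capitals and read as above. They lie at chrXIII:70374-70483 (plus) for TSL1, chrXV:231906-232005 (minus) for DDR2, chrV:291816-291872 (plus) for RGI1 and chrVII:428151-428197 (minus) for PNC1.
TSL1: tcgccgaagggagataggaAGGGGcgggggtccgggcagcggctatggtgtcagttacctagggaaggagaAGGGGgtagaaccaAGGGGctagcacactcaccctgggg
DDR2: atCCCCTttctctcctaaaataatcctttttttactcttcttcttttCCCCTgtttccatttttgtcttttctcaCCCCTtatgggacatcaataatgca
RGI1: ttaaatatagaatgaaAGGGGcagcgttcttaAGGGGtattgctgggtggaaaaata
PNC1: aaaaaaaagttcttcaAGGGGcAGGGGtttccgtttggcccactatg

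TSL1 and DDR2 hold 3 copies each in these windows and RGI1 and PNC1 hold 2 each. DDR2, a small stress-responsive protein, had 889, 925, 1233, 981, 1307, 1330.3, 1328, 1553, 1389.5 and 1505 scaled FPKM, and its 3 min value was 1.04 times that at 0 min. RGI1, needed for respiratory growth, reached 2.37 at 15 min. PNC1, a nicotinamidase, reached 1.81 at 10 min and was at 1.097 at 60 min. These 4 are examples from the 33 carriers and not all of those with more than 1 copy. AIM17 also holds 3 copies, and GLC3, GRE3, CPS1 and TFS1 hold 2 each. The carriers with 1 copy include EGO4, ALD3 and HBT1, whose highest ratios were 4.15, 3.23 and 3.12.

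Glycolytic genes entered with small ratios and high levels. ENO2, a major enolase, had 7045, 7646, 7921, 7422, 9019.8, 7838, 8876, 7983, 9200.1 and 8250.5 scaled FPKM, the highest level of the set. ENO1 had 3017, 3185, 3160.3, 3034, 3739, 3176, 3536, 3135, 3631 and 3258. Their highest ratios were 1.31 and 1.24, under the highest spike-in ratio of 1.61, but that came from a spike-in with only 12.0 FPKM. The abundant spike-ins ERCC-00024, ERCC-00016 and ERCC-00017, with 4279, 2356 and 2163 FPKM at 0 min, reached 1.03, 1.03 and 1.04. The value of 1.61 is therefore no measure of error at the level of these genes. TDH1, a glyceraldehyde-3-phosphate dehydrogenase, had a highest ratio of 1.47. The enolase and dehydrogenase genes are near-identical copies within their families, so that reads may be split between them and the single values are uncertain. ENO1 and ENO2 also have the codons that the study's reporters class as optimal (OPT) in 97.4% and 98.6% of their classed codons.

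**Figure D4:**
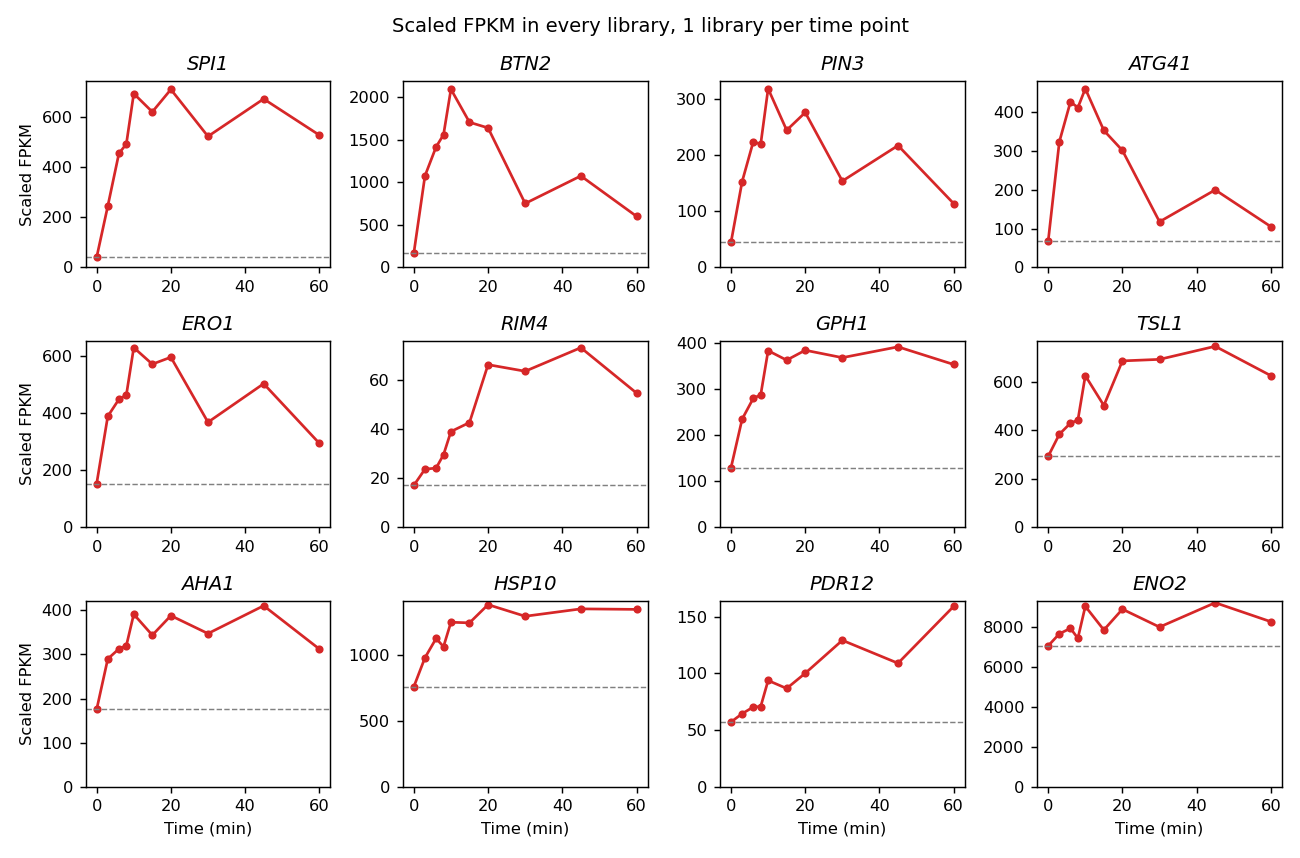
Scaled FPKM (vertical axes, each from 0) against time in min (horizontal axes) for 12 of the 93 mRNAs in every library, 1 library per time point; the dashed line is the 0 min level. BTN2, PIN3 and ATG41 are highest at 10 min and lower later, and PDR12 is highest at 60 min. At 60 min GPH1 and HSP10 are at 0.902 and 0.974 of their highest values, and SPI1 is at 0.743.

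ALD3, a cytosolic aldehyde dehydrogenase, reached 3.23 at 45 min and its mitochondrial relative ALD4 1.66. GRE3, an aldose reductase, reached 2.68 from 243 scaled FPKM, ACS1, which makes acetyl-CoA from acetate, 2.85 from 34.1, and GAD1, glutamate decarboxylase, 1.82 from 101. SUC2, the secreted invertase that splits sucrose, had 34.4, 78.2, 94.9, 93.7, 132, 113, 127, 104, 119 and 102 scaled FPKM and stayed at least 2.27-fold above 0 min in every later library. NRG1, a repressor of glucose-repressed genes, reached 2.55 at 20 min and was at 1.22 at 60 min. PDR12, an exporter of weak acids in the plasma membrane, had 57.2, 64.5, 70.4, 70.8, 93.8, 86.8, 100.2, 129, 109 and 159. It was one of the members whose highest value came in the last library, 2.79-fold (2.60 to 2.99).

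Cell wall and vacuole lists held a few members each. Of 42 measured cell wall genes, 4 were members: SPI1, TIP1 (a mannoprotein of the wall, 2.64), YPS6 (an aspartic protease held at the surface, 2.31) and PRM5 (1.45). That is 9.52% of the list, against 2.18% of all genes. Always below 0 min were 24 of the 42, against 77.6% of all genes. Of 42 vacuole and autophagy genes 3 were members, CPS1 (1.62), ATH1 and PAI3 (an inhibitor of proteinase A, 1.56), which is 7.14% of the list. Always below were 25 of the 42, again against 77.6% of all genes. TFS1, an inhibitor of carboxypeptidase Y, reached 1.89. PHM7, a membrane protein on the stress list, reached 3.57 at 20 min. YRO2, a plasma membrane protein related to Hsp30, was abundant from the start and had 1076, 1327, 1428, 1430.3, 1783, 1692, 1923, 1791, 2012 and 1802 scaled FPKM.

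Other genes with large ratios were on none of the lists. PIN3, which binds the actin regulator Las17 and can promote prion formation, had 44.5, 153, 224, 219.9, 319, 245, 276, 154, 217 and 114 scaled FPKM. ATG41, needed for autophagosome formation, had 67.4, 324, 427, 412, 461, 353, 301, 117, 199.8 and 105. ICS2, of unknown function, had 32.3, 67.6, 114, 127, 189, 159, 166, 78.5, 132 and 52.4. All were highest at 10 min, at 7.16-fold, 6.84-fold and 5.87-fold, and were at 2.55, 1.56 and 1.62 at 60 min. EGO4, a small protein, reached 4.15 at 20 min and was still at 3.11 at 60 min. LSO1, a small protein made in iron shortage, had 37.7, 61.5, 57.9, 55.2, 44.9, 66.5, 91.6, 117, 114 and 98.5, with its highest values from 30 min on. ECL1, which extends life span when overproduced, lay between 1.88 and 2.45 in every later library. HBT1, a protein of polarized growth, was at 1.03 at 3 min and reached 3.12 at 45 min. In all 56 of the 93 mRNAs were on no list.

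The remaining lists held 1 member or 0 each, to be read against 2.18% of all genes always above and 77.6% always below 0 min. The shares always below 0 min among ubiquitin and proteasome genes and among transcription factors lie near that of all genes. Of 78 ubiquitin and proteasome genes only UBC4, a ubiquitin-conjugating enzyme whose near-identical copy UBC5 may share its reads, was a member (1.38 at 10 min), and 61 were always below 0 min. The 33 redox genes, the 20 sulfur metabolism genes and the 28 genes of mRNA decay gave 0 members, with 15, 17 and 24 always below 0 min. Of 39 transcription factors 30 were always below, and MBF1 was the member, beside RPN4 among the left-out genes. RNA-binding proteins outside these lists were members too. CTH1, a zinc finger protein that binds AU-rich elements in mRNAs and promotes their decay, had 59.6, 109.9, 118, 113, 143, 122, 139.9, 121, 147 and 118 scaled FPKM, a ratio between 1.84 and 2.46. RIE1 reached 1.89.

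The time courses differed within the set. The highest value came at 45 min for 34 mRNAs, at 10 min for 25, at 20 min for 21, at 30 min for 7, at 15 min for 3, at 60 min for 2 and at 3 min for 1. This order depends on the factors of single libraries. With spike-in factors smoothed by a straight line over time, the highest value came at 30 min for 35, at 20 min for 26, at 10 min for 15 and at 45 min for 1. Between 45 and 60 min 83 of the 93 were lower in the later library. The level at 60 min relative to that at 10 min had a median of 0.842 over the 93, 0.958 over the left-out genes and 0.573 over all genes. It was at most 0.5 for 12 mRNAs (ATG41, ICS2, BTN2, PIN3, PHM7, SNG1, ASI3, YFR052C-A, ERO1, OPI10, TMA10 and NRG1) and at least 1.2 for 9 (LSO1, PDR12, YMR196W, YPK2, RIM4, PAI3, ACS1, HBT1 and CPS1). The first group included mRNAs with large early ratios, BTN2 at 6.43, ATG41 at 4.80 and PIN3 at 3.44 at 3 min. SPI1, at 6.16 at 3 min, was not in it, with 0.761 of its 10 min level left at 60 min.

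**Figure D5:**
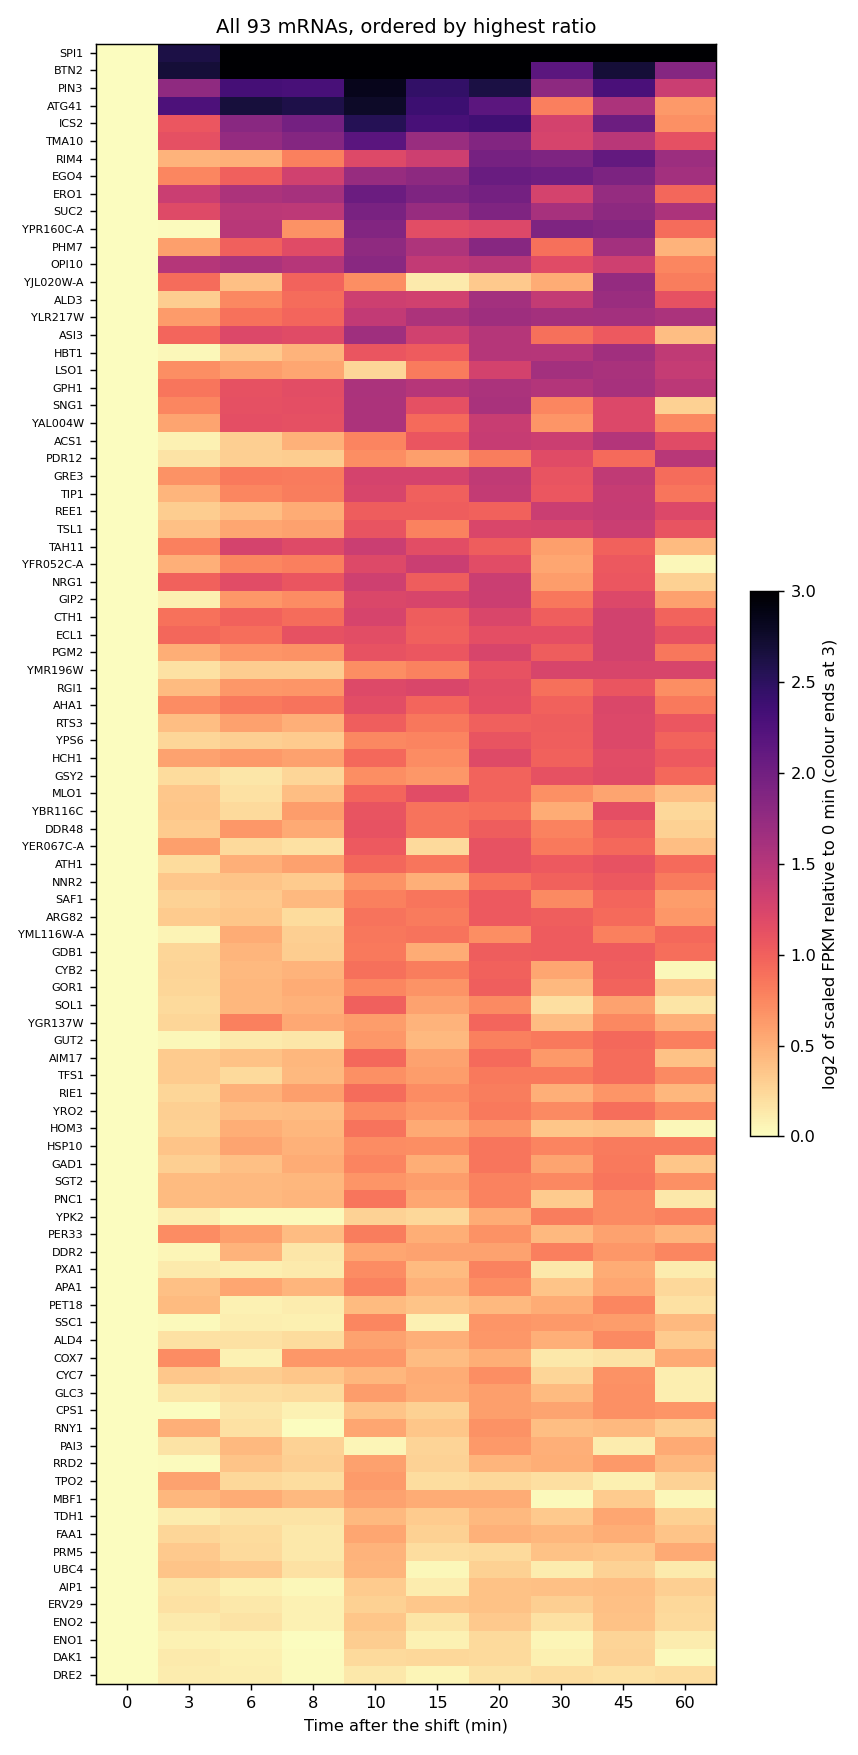
Heat map of log2 of scaled FPKM relative to 0 min (colour, from 0 to 3) for all 93 mRNAs (rows, ordered by highest ratio) in the 10 libraries (columns, time in min). SPI1 and BTN2 pass the end of the colour scale, and the lower rows, down to DRE2 at a highest ratio of 1.16, stay close to 0.

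Properties that the rule did not use were compared over the 84 members in the annotation. Their median coding length was 1155 bases, against 1245 for the 4890 annotated genes with at least 10 FPKM. Their median share of OPT codons was 61.2% (quartiles 52.0 and 71.1), against 52.9% (47.6 and 61.2) for all and 71.9% for the left-out genes, and 9 members had at least 80%, among them SSC1, HSP10, TIP1 and TDH1. This share counts only 9 codons particular to the OPT reporter and 9 particular to the NON-OPT reporter. It is not the published optimality measure that the paper used for its genome-wide bins. The 93 also started higher, at a median of 77.3 FPKM at 0 min against 45.0 for all 5193 genes. Codon shares were not compared at equal level. An intron was annotated in 1 of 84 (UBC4; 1.19%), against 4.74% of all. Coding sequences under 500 bases made up 17.9% of the members and 12.6% of all. In such short genes FPKM rests on few positions, and no fragment number was estimated. Among them are SPI1, ATG41, TMA10 and EGO4, with large ratios, and COX7 and DDR2.

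Several members lie next to one another. Of the 84, 10 (11.9%) have an adjacent gene that is a member or one of the left-out genes, against 3.43% of the other annotated genes next to a gene always above 0 min or left out. The 10 count both genes of the pairs SSC1 and TAH11, YPK2 and PGM2, DDR48 and PAI3, and SOL1 and EGO4. Such double counting cannot occur among the other genes, so the 2 shares are not alike. SSC1 and TAH11 are transcribed away from each other from starts 445 bases apart. TAH11, the replication licensing factor Cdt1, had 20.6, 35.7, 49.5, 47.1, 52.7, 45.7, 41.9, 31.2, 40.8 and 27.8 scaled FPKM, and its highest ratio, 2.56, was above that of SSC1, 1.69. DDR48 and PAI3 converge with 177 bases between their coding ends, and GSY2 and HSP60 with 450. ASI3, part of a ubiquitin ligase of the inner nuclear membrane, lies 265 bases downstream of SIS1 on the same strand and had 25.5, 49.97, 59.3, 57.7, 80.7, 63.0, 72.3, 47.6, 52.9 and 33.9. YPK2, a protein kinase, lies 443 bases downstream of PGM2 on the same strand, and EGO4 lies 1274 bases downstream of SOL1. Whether transcripts of these pairs overlap was not tested.

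Of the 93 identifiers, 9 are not in the R64 annotation used here (2.97% of 303 such identifiers with at least 10 FPKM, against 2.13% of the annotated ones). By their systematic names, 5 of them lie next to genes always above 0 min: YAL004W by SSA1, YLR217W by CPR6, YER067C-A by RGI1, YGR137W by TPO2 and YPR160C-A by GPH1. YLR217W had 409, 633, 752, 798, 1092, 1213, 1305, 1262, 1267 and 1215 scaled FPKM, and CPR6, an Hsp90 co-chaperone among the left-out genes, reached 3.84 against 3.19 for YLR217W. YAL004W was highest at 10 min, at 2.96, and SSA1 reached 2.38. The kits named were stranded, but the strand setting of the counting is not given in the sources used here, so reads of such overlapping or neighbouring pairs cannot be assigned to one of them. YPR160C-A, at 27.3 scaled FPKM at 0 min, had the largest ratio of the 9, 3.75, and a lowest ratio of 1.01. By its name YFR052C-A lies between RPN12 and HXK1. HXK1 was above 0 min in 8 of 9 later libraries and reached 2.54, against 2.56 for YFR052C-A, and RPN12 was always below 0 min. Whether YFR052C-A shares reads with a neighbour was not tested.

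The members given little or no description above had highest ratios between 1.16 and 3.34. They were YJL020W-A, SNG1, REE1, YFR052C-A, YMR196W, RTS3, MLO1, YBR116C, DDR48, NNR2, SAF1, YML116W-A, GOR1, SOL1, GUT2, AIM17, HOM3, PER33, PET18, COX7, CYC7, RRD2, TPO2, FAA1, AIP1, ERV29, DAK1 and DRE2. Among them are GUT2, the glycerol-3-phosphate dehydrogenase of mitochondria, HOM3, aspartate kinase, CYC7, a form of cytochrome c, and DRE2, an iron-sulfur protein, which was closest to its 0 min level with 106, 114, 113, 107, 116, 109.5, 119, 122, 119.7 and 122 scaled FPKM.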

How the data were processed

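Paired-end RNA-seq of 10 rpb1-1/caf1Δ libraries was analysed, 1 per time point. According to the study's methods, the authors aligned reads to SacCer2 with Bowtie 0.12.7 and computed the deposited FPKM per gene with Cufflinks 1.3.0; the deposited values carry no spike-in scaling. The labels name both a poly(A)-selecting and a total RNA kit, and which was used here is not given in the sources used here. Each column was divided by its summed ERCC FPKM relative to 0 min. Fragments were estimated from the whole-fragment steps of low FPKM in single-exon genes of at least 900 coding bases (83.5 to 93.6% of low values within 0.1 of a whole number, mean fragment length 160), and exact 95% intervals cover counting error only. No test was made, since the rule used every library. Steps were checked on simulated data. All 10 columns matched a library.

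Promoters, coding lengths, introns and neighbours were read from the RefSeq R64 genome by its own annotation, since no promoter table was used here. No SacCer2 coordinate was converted. Of the 93 identifiers 84 matched. Members and gene lists were chosen with earlier results of these data known. Named in full were the 10 members with the highest ratio at any time, at 60 min, in the lowest later library and by level, those on a list or next to a left-out gene, and the genes nearest each threshold; a few others were named after their values were seen. Alternatives changed the scaling, the FPKM minimum, the margin, the pseudocount, the libraries, the identifiers and the motif windows. Python 3.11.15, numpy 2.4.6, pandas 2.3.3, scipy 1.17.1 and matplotlib 3.10.9 were used.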

Additional observations from a re-analysis of the deposited data

How the results depend on the processing

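The number of mRNAs depended on the scaling and the margin. Leaving out a later library or the spike-in factors, which are all above 1, can only add mRNAs to the rule. The rule gave 234 mRNAs without spike-in scaling (median highest ratio 1.79), 374 with equal summed FPKM (1.94; 60 min median 1.73) and, with smoothed factors, 114, of which 90 were among the 93 (1.97 and 1.41). These medians are over the larger sets that each scaling gave. Over the fixed 93 the median highest ratio was 2.73 without scaling, 3.33 with equal summed FPKM and 2.22 with smoothed factors. The 60 min medians of the 93 were then 2.23, 2.98 and 1.52. A minimum of 1 FPKM gave a median highest ratio of 2.45, and one of 50 FPKM gave 59 mRNAs and 1.92. A margin of 1.1 times 0 min gave 60 mRNAs (2.37 and 1.73) and one of 1.5 times gave 16 (3.98 and 2.18). Leaving out each later library in turn gave 93 to 115 mRNAs, the latter without the 60 min library, median highest ratios of 2.06 to 2.16 and 60 min medians of 1.52 to 1.57. The share of promoters with AGGGG was 10.7% for at least 2 matches and 60.7% in 500 bases. That with heat shock units was 3.57% for 3 units and 44.0% for a pair in 500 bases. The median spike-in ratio, FPKM + 1, either set of alternate spike-ins, annotated identifiers alone and longer genes for the fragment steps moved no value beyond the spread of the spike-ins or 1.5 times a count. The 500-base windows, the alternate spike-ins and the annotated identifiers were chosen after seeing the data. No paired analysis was possible because no group of libraries holds more than 1. With 1 library per time point, error between cultures is unknown, and members with few fragments, such as PET18 with 35 at 0 min, have wide counting intervals.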
